A study of Mus musculus with 9 samples.

Results

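The comparison described here is that of ears from Mdl-1-/- mice with ears from wild-type mice, both given IL-23 DNA. It rests on 6 of the 9 libraries of the study, 3 per genotype, chosen by genotype and treatment as labelled, with every gene that passed a filter on low counts. All mice were C57BL/6 and 10 weeks old, and the RNA came from the whole ear. Wild-type mice received 15 micrograms of either IL-23 MC DNA or GFP MC DNA by hydrodynamic injection into the tail vein, and Mdl-1-/- mice received 15 micrograms of IL-23 MC DNA. The labels do not give the time between injection and collection, the sex of the mice or the design of the Mdl-1-/- allele. They do not say whether each library came from a separate mouse, so the p-values below measure the spread between libraries, part of which may be technical. No Mdl-1-/- ears with GFP DNA are among the 9 libraries, so a difference between genotypes that was present before IL-23 cannot be told apart from one that arose under IL-23. Below, "wild-type library" and "knockout library" mean the IL-23 libraries, numbered 1 to 3 in each group as in the labels, and "GFP library" means a wild-type ear with GFP DNA.

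MDL-1, the product of Clec5a, is a C-type lectin receptor on the surface of monocytes, macrophages and neutrophils. It has no signalling motif of its own and pairs with the adaptors DAP12 (Tyrobp) and DAP10 (Hcst). Phosphorylated DAP12 recruits the tyrosine kinase Syk, which acts through Card9, Bcl10 and Malt1 and through phospholipase C and PI3 kinase. IL-23 is the cytokine that sustains IL-17- and IL-22-producing lymphocytes. In skin, IL-17 and IL-22 act on keratinocytes, which answer with antimicrobial peptides, neutrophil-attracting chemokines, stress keratins and thickening of the epidermis. The study's stated question is which part of the IL-23-induced skin transcriptome is regulated by MDL-1.

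Totals ran from 3776188 to 5605713 counts per library, more than the average number of reads per sample that the labels give. Levels are counts per 1000000 (CPM) of the library total after TMM scaling. On that scale 3 counts, the limit a count of 0 allows for counting error only, are worth 0.464 to 0.992 CPM. These are 3' tag libraries, so a count is not divided by gene length and levels are compared within a gene, not between genes. Of the defining markers of ear tissue, the keratinocyte genes Krt5 and Krt10 and the cartilage genes Acan and Cytl1 had counts in all 9 libraries. All 10 B and plasma cell genes together summed to between 0.686 and 3.83 CPM per library, and none reached the filter. Mitochondrially encoded genes made up 12.2% ± 0.784 (SD, n = 3) of the counts in the knockout libraries, 8.85% ± 0.153 in the wild-type libraries and 14.0% ± 1.31 in the GFP libraries. The exact two-sided permutation test of knockout against wild type gave p = 0.1, the smallest that 3 against 3 allows.

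Clec5a (ENSMUSG00000029915, chromosome 6, 40574894 to 40585821, minus strand, GRCm38) was counted at low depth. It had 17, 21 and 11 counts in the wild-type libraries, or 3.90, 4.598 and 3.64 CPM. The knockout libraries held 10, 13 and 5 counts, or 2.24, 2.97 and 1.20 CPM, and the GFP libraries 2, 7 and 10 counts. The ranges of the IL-23 groups did not overlap, but the log2 fold change of -0.92 ± 0.47 (SE) was not called by edgeR's quasi-likelihood test (adjusted p = 0.185). The labels do not say which part of Clec5a is altered, and a tag near the 3' end outside an altered part would be counted in both genotypes. These counts therefore do not check the genotype, which is used here as labelled.

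Of 13807 genes tested, 2439 were called at a Benjamini-Hochberg adjusted p under 0.05, which is 17.7%. In the knockout libraries 1046 genes were higher (7.58%) and 1393 were lower (10.1%). These shares are the background for every count of list members called below. The median log2 fold change of all tested genes was 0.0016. For 36.5% of tested genes the ranges of the 3 knockout and 3 wild-type libraries did not overlap. A change of at least 2-fold was found for 484 of the genes called higher and 428 of those called lower, and one of at least 4-fold for 91 and 82. The count moved with single libraries. It was 1166 without knockout library 1, 1363 without knockout library 3, 1128 without wild-type library 2 and 1300 without wild-type library 3. In all, 798 genes were called with each of the 6 libraries left out in turn. With upper-quartile scaling, which moves the zero point, 1318 genes were called higher and 1161 lower, so the larger side turns with the scaling: 53.2% of calls were higher, against 42.9% with TMM.

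**Figure D1:**
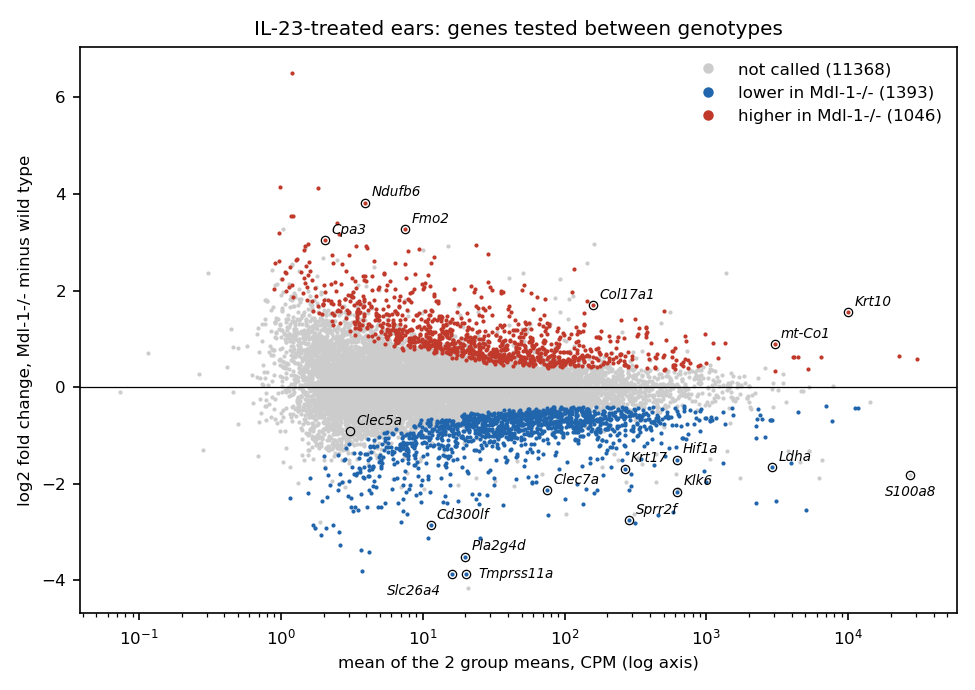
Each point is 1 of the 13807 tested genes, placed by its mean level (CPM, log axis) and its log2 fold change, Mdl-1-/- minus wild type under IL-23. Genes called higher (1046) are red, genes called lower (1393) are blue, the rest are grey, and named genes are circled. Clec5a and S100a8 lie below 0 and are grey.

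The largest falls among genes with at least 5 CPM and non-overlapping groups were in epithelial enzymes, an anion exchanger, small proline-rich envelope proteins and receptors of myeloid cells. Tmprss11a (ENSMUSG00000072845, chromosome 5, 86410410 to 86468990, minus strand), a membrane-bound serine protease of stratified epithelia, stood at 17.9, 32.6 and 63.2 CPM in the wild-type libraries. In the knockout libraries it was at 3.13, 3.43 and 0.958 CPM, and in the GFP libraries it had 1 count each. That is a fall by 3.87 ± 0.50 on the log2 scale, or 14.6-fold (adjusted p = 0.00136). Every wild-type library was above every knockout library by more than 5-fold. Slc26a4 encodes pendrin, a chloride, bicarbonate and iodide exchanger. It had no count in any GFP library, 27.3, 16.0 and 46.6 CPM in the wild-type libraries and 0.447, 3.89 and 1.68 CPM in the knockout libraries (log2 fold change -3.87 ± 0.62, adjusted p = 0.00695). Pla2g4d, a cytosolic phospholipase A2, went from 21.3, 30.9 and 57.9 CPM to 1.34, 3.66 and 4.55 CPM (-3.51 ± 0.44, adjusted p = 0.00107).

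Spdef, an ETS transcription factor of secretory epithelia, was likewise without a count in the GFP libraries. It stood at 5.96, 6.13 and 7.94 CPM in the wild-type libraries and 0.224, 0.229 and 1.44 CPM in the knockout libraries (-3.37 ± 0.58, adjusted p = 0.00281). Fgfbp3, a secreted binding protein of fibroblast growth factors, was below the GFP level in the knockout ears. Its GFP libraries held 3.13, 8.08 and 8.97 CPM, its wild-type libraries 30.02, 10.1 and 18.5 CPM and its knockout libraries 1.34, 2.97 and 2.40 CPM (-3.12 ± 0.51, adjusted p = 0.00294). For Fgfbp3, a genotype difference present before IL-23 cannot be told apart from one that arose under IL-23. Plaur, the urokinase receptor, was even among the wild-type libraries at 13.1, 11.4 and 12.6 CPM and had 3.355, 1.83 and 0 CPM in the knockout libraries (-2.79 ± 0.56, adjusted p = 0.00618). The other members of the 12 largest falls were Tmprss11b, Mirt2, Sprr2j-ps, Cd300lf, Sprr2g and Sprr2f. Mirt2 is annotated as antisense, and the strand setting of the counting is not given in the sources used here, so its reads cannot be told apart from those of an overlapping gene. Of the 12, only Sprr2g lost its call when 1 IL-23 library was left out (adjusted p = 0.0671 without knockout library 3).

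The largest rises were in genes of varied function. Fxyd3, a regulator of the sodium pump, was at 2.06, 2.41 and 2.31 CPM in the wild-type libraries and 15.9, 12.1 and 21.8 CPM in the knockout libraries (2.86 ± 0.43, adjusted p = 0.00145). Gucy1b1, a subunit of the nitric oxide receptor guanylate cyclase, was at 1.15, 1.31 and 0 CPM against 6.49, 6.18 and 8.63 CPM (2.93 ± 0.53, adjusted p = 0.00297). Mettl7a2, Gpn2 and Rpl31-ps4 were also called with each IL-23 library left out in turn. Ndufb6, a subunit of respiratory complex I, had the largest estimate of the 12. It stood at 1.15, 0.219 and 0 CPM in the wild-type libraries, on 5, 1 and 0 counts, and 7.83, 5.26 and 9.11 CPM in the knockout libraries (3.82 ± 0.92, adjusted p = 0.0188). The GFP libraries held 10.3, 1.10 and 7.12 CPM of Ndufb6. Its call was lost without knockout library 1 or 3 or wild-type library 2 or 3 (adjusted p 0.0546 to 0.0864). Fmo2, a flavin-containing monooxygenase, rose from 2.52, 1.31 and 0 CPM to 23.3, 7.55 and 10.5 CPM (3.28 ± 0.69, adjusted p = 0.0133), and its call was lost without wild-type library 2 (adjusted p = 0.0662). Pyy, the gut hormone peptide YY, was at 12.8, 7.225 and 1.32 CPM against 45.85, 38.65 and 68.3 CPM (2.76 ± 0.60, adjusted p = 0.0201), above all 3 GFP libraries at 6.61, 6.24 and 1.70 CPM. Its call was lost without knockout library 1 or 3 or wild-type library 2 (adjusted p 0.0558 to 0.0829). Gm9294 and Rpl31-ps4 are processed pseudogenes whose reads may belong to their parent genes.

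**Figure D2:**
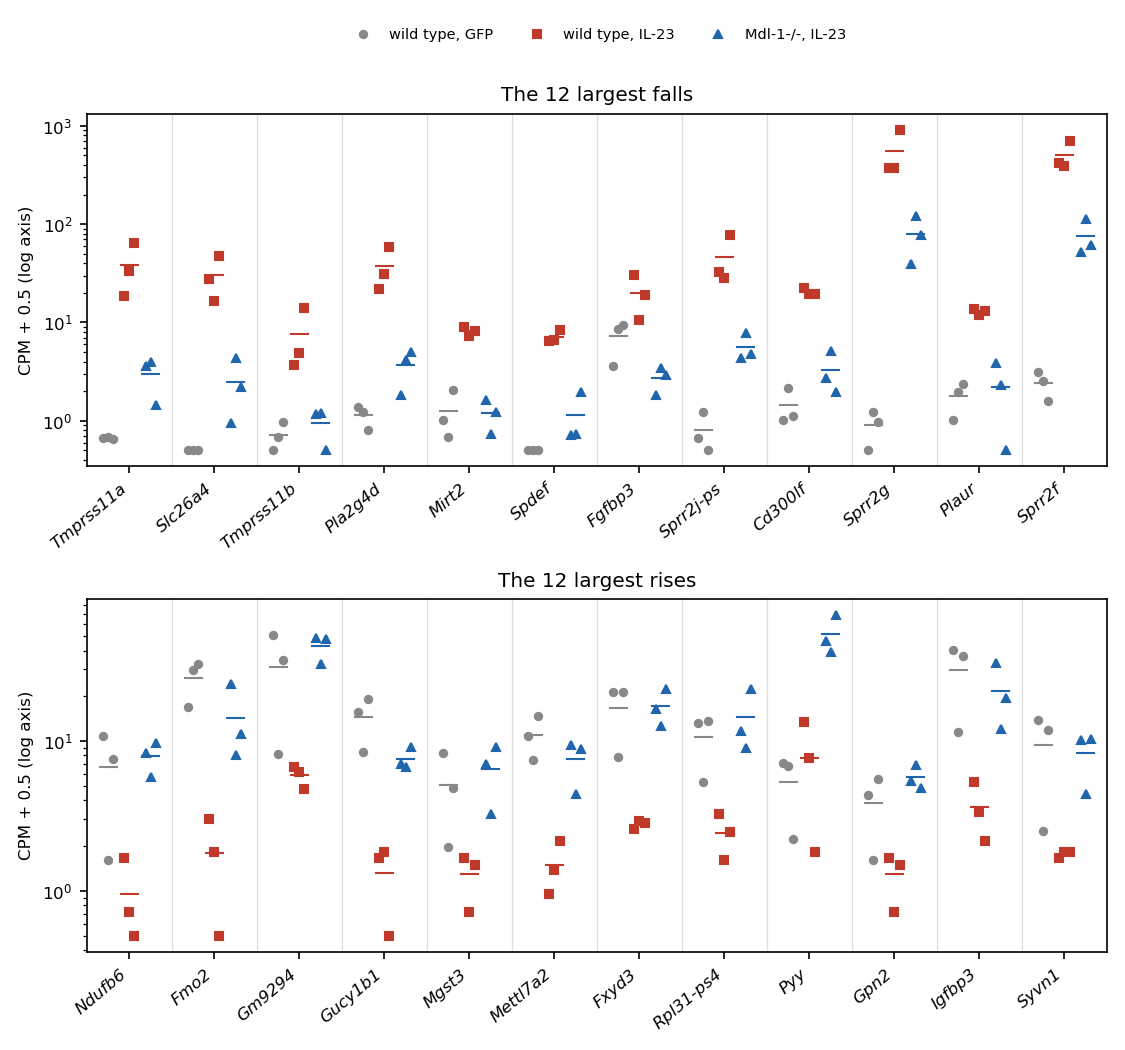
Each point is 1 library (CPM + 0.5, log axis), in 3 groups per gene, with the group mean as a line. Upper panel, the 12 largest falls, with the wild-type IL-23 libraries above both other groups. Lower panel, the 12 largest rises, where GFP library 2 is the lowest of the GFP libraries in 10 of 12 genes.

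Libraries of 1 group differed from each other along the same genes that differed between genotypes. GFP library 2 was the lowest GFP library for 71.7% of the genes called higher, against 37.0% of all tested genes, and the highest for 72.3% of the genes called lower, against 40.3% of all. The GFP libraries are not part of the contrast between the genotypes, but they enter the scaling, the count filter and the estimate of the spread. Without GFP library 1, 2 or 3 the genes called were 2254, 2802 and 2093, against 2439. Among the knockout libraries, library 2 was the lowest for 56.6% of the genes called higher, against 33.8% of all, and the highest for 62.5% of those called lower, against 32.5% of all. Among the wild-type libraries, library 3 was the highest for 63.2% of the genes called lower, against 38.2% of all. On the first principal component of the 6 IL-23 libraries, which held 52.4% of their variance, the wild-type libraries lay at -19.1, -34.3 and -55.2 and the knockout libraries at 48.9, 19.9 and 39.7. The part of this within-group variation in the genotype difference was not tested.

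**Figure D3:**
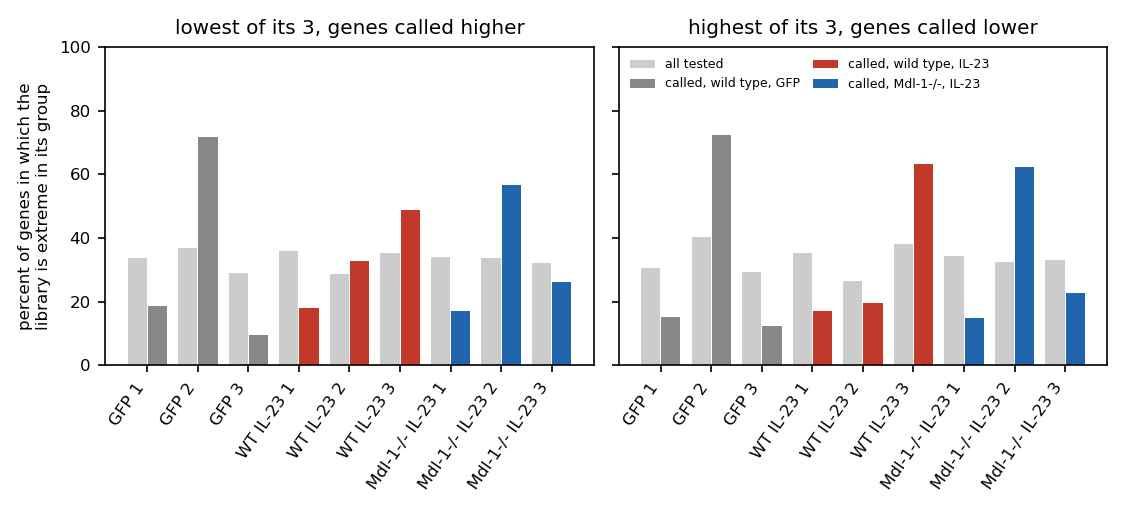
Left, the percent of genes called higher (coloured bars) and of all tested genes (grey bars) in which a library was the lowest of its group of 3. Right, the percent in which it was the highest, for genes called lower. GFP library 2 reaches 71.7% and 72.3%.

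Genes of the signalling chain below MDL-1 were lower in the knockout ears where called. Of 22 genes of the MDL-1, DAP12 and Syk list, 16 were tested. Of these, 8 fell and none rose, against backgrounds of 10.1% and 7.58%, and their median log2 fold change was -0.79. Tyrobp, the adaptor DAP12, stood at 11.7, 16.9 and 14.9 CPM in the wild-type libraries and 6.93, 6.86 and 5.75 CPM in the knockout libraries, with the GFP libraries at 2.26, 5.69 and 5.41 CPM (log2 fold change -1.15 ± 0.30, adjusted p = 0.0173). Fcer1g, the related adaptor FcR gamma, was at 16.7, 24.7 and 18.85 CPM against 7.38, 10.98 and 6.47 CPM (-1.28 ± 0.30, adjusted p = 0.0104). Both adaptors had no overlap between the genotypes. The call of Tyrobp was lost without knockout library 3 (adjusted p = 0.0667) or wild-type library 2 (0.0895), and that of Fcer1g without the same libraries (0.051 and 0.0665). Syk itself was at 9.40, 7.01 and 7.27 CPM against 3.13, 4.80 and 2.64 CPM (-1.16 ± 0.35, adjusted p = 0.0329), a call that held without knockout library 2 and was lost without each of the other 5 IL-23 libraries (adjusted p 0.0662 to 0.117).

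Other lowered members were Lcp2 (the adaptor SLP-76, -1.49 ± 0.34), Vav1 (a guanine nucleotide exchange factor, -1.44 ± 0.35), the paracaspase Malt1 (-0.67 ± 0.22) and the lipid phosphatase Inpp5d (-1.25 ± 0.37). None of the 8 genes of this list was called with every IL-23 library left out in turn. The count of lowered members was 4 with a minimum count of 30 or without knockout library 1, 3 without knockout library 3, 0 without wild-type library 2 and 4 without wild-type library 3. Hcst, the adaptor DAP10, was too low to test, at 0.917, 1.97 and 3.64 CPM in the wild-type libraries and 1.57, 2.06 and 2.64 CPM in the knockout libraries. In whole-ear RNA, fewer cells of a type and less RNA per cell cannot be told apart, here and in every group below.

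Receptors of the same cells, among them DAP12-coupled receptors and C-type lectins but also others, were mostly lower where called. Of 15 tested, 6 fell and 1 rose, against 10.1% and 7.58% of all tested genes, and the median log2 fold change was -1.47. Cd300lf, an inhibitory receptor of myeloid cells on chromosome 11 (115116214 to 115133992, minus strand), was at 22.002, 18.8 and 19.2 CPM in the wild-type libraries and 2.24, 4.57 and 1.44 CPM in the knockout libraries (-2.85 ± 0.36, adjusted p = 0.000876). Clec7a, the beta-glucan receptor Dectin-1, was at 109.8, 121.9 and 137.9 CPM against 22.6, 42.3 and 19.4 CPM, with the GFP libraries at 6.79, 12.9 and 9.90 CPM (-2.13 ± 0.27, adjusted p = 0.00107). These calls held with each library left out. Clec4d, Sirpb1b, Sirpb1a and Clec4n were also lowered, with log2 fold changes from -2.36 to -1.13. Clec4d lost its call without any 1 of the 6 IL-23 libraries (adjusted p 0.0527 to 0.0849), Sirpb1b without wild-type library 2 or 3 (0.0557 and 0.0578), and Sirpb1a and Clec4n without knockout library 1 or 3 or wild-type library 2 or 3 (0.071 to 0.159). Mgl2, a lectin of dermal macrophages and dendritic cells, rose (1.27 ± 0.36, adjusted p = 0.0248), a call lost without knockout library 1 or 3 or wild-type library 1 or 2 (0.0505 to 0.129). The count of lowered receptors was 11 without a count filter, 3 without knockout library 3 and 2 without wild-type library 2 or 3.

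All 20 tested genes of the neutrophil list had a log2 fold change below 0, with a median of -1.48. Of these, 7 were called lower, against 10.1% of all tested genes. The members S100a8, S100a9 and Stfa1 are also in lists of epidermal genes described below, so the list is not of neutrophils alone. Lrg1, a glycoprotein of neutrophil granules, was at 25.4, 42.0 and 43.3 CPM in the wild-type libraries and 7.38, 12.4 and 3.83 CPM in the knockout libraries, a range that spans the 5.92, 8.63 and 7.42 CPM of the GFP libraries (-2.22 ± 0.33, adjusted p = 0.00145). Hp (haptoglobin) fell by 1.46 ± 0.32 on the log2 scale. These 2 genes held with each library left out. Slfn4, Retnlg, Stfa2l1, the G-CSF receptor Csf3r and the receptor Hcar2 were also lowered, with log2 fold changes from -2.56 to -0.73. The call of Slfn4 was lost without each of the IL-23 libraries except wild-type library 1 (adjusted p 0.0562 to 0.117) and with DESeq2 (0.065), and that of Retnlg without knockout library 1 or any wild-type library (0.0566 to 0.0884). Stfa2l1 and Hcar2 lost theirs without knockout library 1 or 3 or wild-type library 2 or 3 (0.0739 to 0.163), Hcar2 also without GFP library 3 (0.0632), and Csf3r without knockout library 1 or 3 or wild-type library 3 (0.0548 to 0.0804). S100a8, a calprotectin subunit made by both neutrophils and inflamed keratinocytes, was at 28035, 38663 and 59962 CPM in the wild-type libraries and 5082, 20566 and 10142 CPM in the knockout libraries. Its groups did not overlap, yet the log2 fold change of -1.82 ± 0.58 was not called (adjusted p = 0.0777), and neither was that of its partner S100a9 (-1.50 ± 0.49, adjusted p = 0.0816). DESeq2 (adjusted p = 0.0105 and 0.0165), limma voom (0.00484 and 0.00873) and edgeR with non-robust dispersions (0.00921 and 0.0124) called both. Knockout library 2 was the highest of its group for both, and without it both were called (adjusted p = 0.0238 and 0.0294). The count of lowered neutrophil genes was 12 with limma voom, 13 with non-robust dispersions, 11 without a count filter and 13 without that library, and 3, 3, 3 and 2 without knockout library 1, knockout library 3, wild-type library 2 and wild-type library 3. Ly6g, a defining neutrophil marker, was at 0.917 to 1.53 CPM in the wild-type libraries and 0 to 0.229 CPM in the knockout libraries, too low to test.

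Macrophage and dendritic cell genes gave few calls. Of 20 monocyte and macrophage genes tested, 1 fell and 1 rose, against 10.1% and 7.58% of all tested genes. Their summed level ran from 1289 to 1565 CPM in the wild-type libraries and 1173 to 1495 CPM in the knockout libraries. Arg1, arginase 1, was the lowered one, at 30.7, 43.6 and 112.4 CPM against 12.3, 12.6 and 8.87 CPM (-2.44 ± 0.48, adjusted p = 0.0126), a call lost without knockout library 1 (adjusted p = 0.0553). Cd163, a scavenger receptor of resident macrophages, was the raised one (1.59 ± 0.41, adjusted p = 0.0165), and lost its call without knockout library 1 or wild-type library 2 (0.0648 for each). The MHC class II genes Cd74 and H2-Aa were not called, with log2 fold changes of 0.33 ± 0.19 and 0.25 ± 0.19. Fscn1, an actin-bundling protein of mature dendritic cells, fell (-1.13 ± 0.31, adjusted p = 0.0206). It was the single call among 15 dendritic and Langerhans cell genes, and was lost without knockout library 1 or 3 or wild-type library 1 or 3 (adjusted p 0.0646 to 0.076).

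Mast cell genes went in opposite directions. Hdc, the histamine-forming enzyme that mast cells, basophils and neutrophils all make, was at 121.7, 121.3 and 151.8 CPM in the wild-type libraries and 28.0, 28.4 and 5.99 CPM in the knockout libraries (-2.65 ± 0.59, adjusted p = 0.0256). The mast cell proteases Cpa3, Mcpt4 and Cma1 were higher. Cpa3 was at 0.229, 0.438 and 0.661 CPM in the wild-type libraries, 6.04, 2.97 and 1.92 CPM in the knockout libraries and 7.31, 3.31 and 4.49 CPM in the GFP libraries (3.05 ± 0.66, adjusted p = 0.0066). The 3 wild-type values for Cpa3 rest on 1 to 2 counts each. Kit, the receptor that mast cells depend on, was not called (1.07 ± 0.58, adjusted p = 0.216). Hdc lost its call without knockout library 1 or any 1 of the wild-type libraries (adjusted p 0.0516 to 0.082), Mcpt4 without knockout library 1 (0.0708), and Cma1 in 5 of the 6 left-out fits (0.0541 to 0.211), knockout library 3 being the exception. Cma1 was also not called with limma voom (0.122), non-robust dispersions (0.0502) or without GFP library 3 (0.0574). The 3 proteases did not reach the count filter in the fit of the 6 IL-23 libraries alone or at a minimum count of 30 and were not tested there. With all 9 libraries they passed the filter through the GFP libraries, where each had 15 to 42 counts.

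Lymphocyte genes gave few calls. Of 17 T and innate lymphoid cell genes tested, 1 fell, Trbc2, and 1 rose, against 10.1% and 7.58% of all tested genes. The count called higher stayed at 1 in every alternative fit, and the largest log2 fold change of the list was 2.05. Trbc2, a T-cell receptor beta constant gene, was at 43.5, 37.9 and 32.7 CPM in the wild-type libraries and 26.2, 25.6 and 20.1 CPM in the knockout libraries (-0.67 ± 0.22, adjusted p = 0.0447), and lost its call without any 1 of the IL-23 libraries (adjusted p 0.058 to 0.165). Cd3e was not called (0.28 ± 0.50, adjusted p = 0.747). Il17a, Il17f, Il23a and Il23r were under the filter, at no more than 1.60 CPM in any library. No GFP library had a count of Il22, which stood at 6.42, 3.72 and 11.6 CPM in the wild-type libraries and 0.671, 4.12 and 3.355 CPM in the knockout libraries. Its groups overlapped, and it was not called (-1.37 ± 0.57, adjusted p = 0.113).

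On the receptor side, Il17ra (-0.77 ± 0.20), Il17re (-0.57 ± 0.17) and the IL-22 co-receptor Il10rb (-0.74 ± 0.22) were lowered. The 3 calls became 1, 0, 0 and 1 without knockout library 1, knockout library 3, wild-type library 2 and wild-type library 3. Il22ra2, the soluble receptor that binds and blocks IL-22, was higher in every knockout library, at 45.2, 49.2 and 47.7 CPM against 27.5, 21.7 and 25.8 CPM in the wild-type and 21.4, 18.4 and 24.9 CPM in the GFP libraries (0.92 ± 0.17, adjusted p = 0.00295). Its values were above both other groups without overlap. The IL-20 receptor chain Il20ra was also higher, at 8.05, 4.35 and 6.47 CPM against 1.60, 0.876 and 1.32 CPM (2.30 ± 0.46, adjusted p = 0.00467), while its partner Il20rb was not called (0.08 ± 0.16). Il19, a ligand of that receptor, stood at 211.3, 125.2 and 191.8 CPM in the wild-type libraries and 17.4, 43.2 and 24.7 CPM in the knockout libraries. Its groups did not overlap, and edgeR's robust test did not call it (-2.63 ± 0.78, adjusted p = 0.0643). It was called with limma voom (adjusted p = 0.00307), with non-robust dispersions (0.00638), in the fit of the 6 IL-23 libraries alone (0.0039), with a minimum count of 30 (0.0491) and without GFP library 1 or 3 (0.0302 and 0.0194), and was not called by DESeq2.

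Among inflammatory mediators, some antimicrobial, IL-1 family and chemokine genes fell. The 3 chemokine or receptor genes that rose were a share near that of all tested genes. In the list of epidermal IL-17 and IL-22 responses 5 of 20 tested genes fell and none rose, with a median of -0.75. The beta-defensin Defb4 was at 16.0, 7.88 and 13.9 CPM in the wild-type libraries and 2.01, 5.03 and 1.20 CPM in the knockout libraries (-2.17 ± 0.42, adjusted p = 0.00396). S100a7a, the mouse psoriasin relative, was at 32.1, 45.5 and 76.4 CPM against 8.28, 18.3 and 11.02 CPM (-2.02 ± 0.37, adjusted p = 0.0055). Defb1 and Defb3 fell by 1.66 and 1.58 on the log2 scale. These 4 calls held with each library left out, and that of the neutrophil chemokine Cxcl5 (-2.24 ± 0.64, adjusted p = 0.0441) was lost without knockout library 1, 2 or 3 or wild-type library 3 (adjusted p 0.0617 to 0.125). With limma voom 9 members of this list were lowered, and with non-robust dispersions 8.

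Il1b was at 428.6, 552.8 and 616.6 CPM in the wild-type libraries and 133.5, 111.8 and 14.6 CPM in the knockout libraries. The groups did not overlap, but knockout library 3 was far below the other 2 knockout libraries and the log2 fold change of -2.62 ± 1.06 was not called (adjusted p = 0.145). Limma voom (adjusted p = 0.0168) and edgeR with non-robust dispersions (0.0237) called it. Of 18 tested genes of the IL-1 and IL-36 family 3 fell and none rose, against 10.1% and 7.58% of all tested genes, and 5 fell without a count filter or with non-robust dispersions. Il1rn, the IL-1 receptor antagonist, was at 282.6, 307.6 and 325.0 CPM against 131.7, 146.6 and 132.7 CPM (-1.15 ± 0.19, adjusted p = 0.00223). Il1f9, an IL-36 cytokine of keratinocytes, fell by 1.15 ± 0.25 on the log2 scale (adjusted p = 0.00962). The myeloid chemokine Ccl4 was at 46.5, 35.9 and 43.3 CPM against 9.17, 11.4 and 2.88 CPM (-2.41 ± 0.48, adjusted p = 0.0108), and the chemokine receptor Cxcr4 fell by 1.88 ± 0.41. Ccl27a, a chemokine of resting keratinocytes, rose from 9.40, 11.2 and 3.64 CPM to 44.1, 20.1 and 44.1 CPM, alongside 34.1, 35.8 and 37.6 CPM in the GFP libraries (2.10 ± 0.35, adjusted p = 0.0034). Cxcl14, another chemokine of resting epithelium, rose by 0.99 ± 0.19. Of 30 chemokine and receptor genes tested, 5 fell and 3 rose, against 10.1% and 7.58% of all tested genes. The 3 became 5 without a count filter. The 5 became 3 with a minimum count of 30, and 2, 2, 3 and 2 without knockout library 1, knockout library 3, wild-type library 2 and wild-type library 3.

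Transcription factors and feedback genes downstream of these cytokines were called in both directions. Ier3, an early response gene, was at 248.2, 295.6 and 309.5 CPM in the wild-type libraries and 134.0, 118.0 and 92.0 CPM in the knockout libraries (-1.31 ± 0.17, adjusted p = 0.000891). Stat3 was at 602.5, 686.1 and 684.8 CPM against 325.0, 528.1 and 437.1 CPM (-0.61 ± 0.17, adjusted p = 0.0212), and the NF-kB inhibitor Nfkbia at 1442, 1364 and 1468 CPM against 838.2, 1116 and 779.2 CPM (-0.64 ± 0.16, adjusted p = 0.0117). The groups did not overlap for these 3 genes. The call of Stat3 was lost without knockout library 1 or 3 or wild-type library 2 or 3 (adjusted p 0.0667 to 0.105), and that of Nfkbia without knockout library 1 (0.056) or 3 (0.0693). Of 18 genes of STAT3, SOCS and gp130 cytokines 2 fell and 3 rose, against 10.1% and 7.58% of all tested genes. The raised ones were the receptor chains Il6ra (1.04 ± 0.26) and Lifr (0.68 ± 0.21) and the kinase Pim1 (0.59 ± 0.17). The 3 became 0 without knockout library 1 or wild-type library 2, and the 2 became 1 without knockout library 1 or with a minimum count of 30 and 0 without knockout library 3 or wild-type library 2 or 3. Of 19 AP-1 and immediate early genes 4 fell and 1 rose, against 10.1% and 7.58% of all tested genes. The raised one, the transcription factor Klf6 (0.60 ± 0.15), lost its call without knockout library 1 or wild-type library 2 (adjusted p 0.0708 and 0.0637), and the 4 became 7 without knockout library 2 and 1 without knockout library 3 or wild-type library 3. The largest change called in the NF-kB and TNF list was that of Tnfaip2, a TNF-induced gene (-1.79 ± 0.41, adjusted p = 0.0242), lost without knockout library 3 or wild-type library 2 or 3 (0.0681 to 0.0862), in the fit of the 6 IL-23 libraries alone (0.0749) and without a count filter (0.0685). In that list 4 of 16 fell and none rose, a count of 2, 0, 2 and 1 without knockout library 1, knockout library 3, wild-type library 2 and wild-type library 3. Tnf was not called (-0.75 ± 0.40, adjusted p = 0.202).

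Of 29 interferon-stimulated genes tested, edgeR called 0, with 2 at an unadjusted p under 0.05, and DESeq2 called 1 and limma voom 0. Without knockout library 1, edgeR called 8 of them higher. Their summed level ran from 366.0 to 877.5 CPM in the wild-type and from 239.1 to 1314 CPM in the knockout libraries, so the groups overlapped. Cxcl9, a chemokine induced by interferon gamma, was at 1.79, 289.3 and 167.7 CPM in the knockout libraries and 13.8, 90.4 and 67.5 CPM in the wild-type libraries (1.42 ± 1.34, adjusted p = 0.516). Library 1 was the lowest of both IL-23 groups. Of 17 MHC class I and immunoproteasome genes 4 rose and none fell, against 7.58% and 10.1% of all tested genes. The peptide transporter Tap2 was at 0.917, 0.657 and 0.331 CPM against 3.80, 5.03 and 3.355 CPM (2.57 ± 0.59, adjusted p = 0.00921). The wild-type values for Tap2 are near or below the worth of 3 counts. Psme1, Psmb9 and H2-T22 rose by 0.55 to 2.25 but were lost in some left-out fits, and the count of 4 became 2 with limma voom or a minimum count of 30, and 2, 1, 1, 2 and 2 without knockout library 2, knockout library 3 and wild-type libraries 1, 2 and 3.

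In the epidermis, all 4 stress keratins, genes of wounded or inflamed skin, fell, with a median of -2.16. Krt17 was at 391.7, 338.0 and 482.4 CPM in the wild-type libraries and 109.1, 158.5 and 109.0 CPM in the knockout libraries, with 27.5, 40.6 and 26.5 CPM in the GFP libraries (-1.68 ± 0.20, adjusted p = 0.000671). Krt16 was at 1322, 1433 and 2018 CPM against 232.4, 643.6 and 346.7 CPM (-1.96 ± 0.42, adjusted p = 0.0206). Krt6a (-2.35 ± 0.60, adjusted p = 0.0427) and Krt6b (-2.54 ± 0.53, adjusted p = 0.0213) are near-identical copies whose reads may be split between them. Of the 4, Krt17 was called in every left-out fit. The count was 2 without knockout library 1, knockout library 3 or wild-type library 2, 1 without wild-type library 3, and 2 in the fit of the 6 IL-23 libraries alone or without a count filter.

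Krt10, the main keratin of the spinous layer, moved the other way. It stood at 5528, 5278 and 4312 CPM in the wild-type libraries and 16418, 13081 and 15124 CPM in the knockout libraries, above the GFP libraries at 2153, 2921 and 4005 CPM (1.56 ± 0.19, adjusted p = 0.000928). Its usual partner Krt1 had an estimate below 0 and was not called, with 1783, 1815 and 1906 CPM in the wild-type libraries and 701.8, 1583 and 1005 CPM in the knockout libraries (-0.74 ± 0.30, adjusted p = 0.125). Krt1 was called lower with DESeq2 (adjusted p = 0.032), limma voom (0.0347), no count filter (0.0425) and a replicate block (0.0141), and without knockout library 2 (0.0117). Sbsn, suprabasin, was at 79.8, 59.3 and 70.8 CPM against 223.2, 198.1 and 190.0 CPM (1.54 ± 0.18, adjusted p = 0.000671), and the calcium-binding Calm5 rose by 2.21 ± 0.40. Casp14, the protease of the cornified layer, fell from 166.8, 218.7 and 219.2 CPM to 55.7, 83.0 and 57.03 CPM (-1.63 ± 0.29, adjusted p = 0.00525). Those 4 calls held in every left-out fit. In the list of terminal differentiation 4 of 38 tested genes rose and 1 fell, with a median of 0.35, where 7.58% and 10.1% of all tested genes rose and fell. The share that rose is thus near that of all genes. The count called higher was 9 with DESeq2, non-robust dispersions or without GFP library 1, 10 in the fit of the 6 IL-23 libraries alone, and 7 with limma voom or without a count filter.

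Of 17 basal keratinocyte and hemidesmosome genes 2 rose and 1 fell, shares near those of all tested genes. The keratin Krt14 fell from 9868, 8258 and 10466 CPM to 6008, 6839 and 4868 CPM (-0.69 ± 0.18, adjusted p = 0.0175), a call lost without knockout library 1 or 3 or wild-type library 3 (adjusted p 0.0553 to 0.0797). Its partner Krt5 was not called (0.30 ± 0.24, adjusted p = 0.423). Col17a1, the hemidesmosome collagen, was at 120.1, 55.6 and 49.6 CPM in the wild-type libraries, 255.0, 249.8 and 228.1 CPM in the knockout libraries and 365.4, 341.4 and 396.1 CPM in the GFP libraries (1.69 ± 0.28, adjusted p = 0.00365). The knockout values for Col17a1 lay between those of the other groups. The other raised gene was Dst, dystonin (0.92 ± 0.26, adjusted p = 0.0365). The 2 became 4 without wild-type library 1 and 1 in the fit of the 6 IL-23 libraries alone and without knockout library 1, GFP library 2 or 3 or wild-type library 2 or 3.

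Small proline-rich (Sprr) and Lce3 proteins are cross-linked into the cornified envelope of inflamed or healing skin. The list of inducible envelope genes holds these and others, such as Ivl and Tgm1. Of 26 of its genes tested, 14 fell and none rose, with a median of -1.71. Sprr2f (ENSMUSG00000050635, chromosome 3, 92365187 to 92366442, plus strand) was at 416.0, 388.4 and 694.0 CPM in the wild-type libraries and 51.9, 111.4 and 60.1 CPM in the knockout libraries (-2.74 ± 0.34, adjusted p = 0.00216). Sprr2e was at 831.7, 780.3 and 1378 CPM against 104.0, 256.2 and 135.6 CPM (-2.59 ± 0.39, adjusted p = 0.00534). Both were under 4 CPM in every GFP library. Limma voom and edgeR with non-robust dispersions each called 22 of the list lower, and 9 were lower without knockout library 1, knockout library 3 or wild-type library 3. Copies of Sprr2 are alike enough that the assignment of reads between them is uncertain.

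Letters before the start sites of these genes were read for the AP-1 motif TGANTCA on both strands, since keratinocyte envelope genes are known targets of AP-1. In windows of 250 bases before the start, from RefSeq on GRCm38.p6, the motif was in 58.3% of those of the lowered genes of the list (7 of 12 windows matched by symbol, of 14 genes). It was in 23.1% of those of the other tested genes of the list and in 6.75% of all 32851 windows in the table. For the epidermal serine proteases, described next, it was in 1 of 13 windows of lowered genes and 1 of 4 windows of the others. The windows of Sprr2f and Sprr2e are shown because these genes had large and stable falls and hold the motif, in capitals, at nearly the same distance from the start. Windows of related copies share descent and are not independent, and a match is a description of letters only.
Sprr2f, chr3:92364937-92365186, plus strand, GRCm38.p6: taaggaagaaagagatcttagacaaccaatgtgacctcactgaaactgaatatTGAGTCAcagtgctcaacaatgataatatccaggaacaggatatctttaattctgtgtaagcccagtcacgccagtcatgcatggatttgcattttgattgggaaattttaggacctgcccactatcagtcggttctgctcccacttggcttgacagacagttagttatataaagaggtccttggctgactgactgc
Sprr2e, chr3:92351893-92352142, plus strand, GRCm38.p6: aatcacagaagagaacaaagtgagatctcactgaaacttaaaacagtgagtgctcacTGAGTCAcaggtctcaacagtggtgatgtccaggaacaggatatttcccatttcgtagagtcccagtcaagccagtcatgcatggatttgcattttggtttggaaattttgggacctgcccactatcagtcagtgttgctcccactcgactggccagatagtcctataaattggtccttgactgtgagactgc
In Sprr2f the motif began 197 bases before the start and in Sprr2e 193 bases before it.

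Serine proteases of the upper epidermis formed the list with the largest share of falls among those drawn in the plot of shares by list, 14 of 21 tested, with none higher and a median of -1.51. Klk6, a kallikrein-related peptidase, was at 699.7, 915.6 and 1451 CPM in the wild-type libraries and 153.2, 292.3 and 240.8 CPM in the knockout libraries, with 4.003, 5.51 and 5.10 CPM in the GFP libraries (-2.16 ± 0.29, adjusted p = 0.00234). Klk7, a desquamating protease, fell from 3624, 5639 and 8397 CPM to 1622, 2198 and 2124 CPM (-1.57 ± 0.36, adjusted p = 0.0235), a call lost without knockout library 1 or 3 or wild-type library 2 or 3 (adjusted p 0.0505 to 0.0779). Klk10, Klk12 and Klk13 fell by more than 2 on the log2 scale. Their calls were lost without knockout library 3 (adjusted p 0.067 to 0.0838), those of Klk10 and Klk13 without knockout library 1 (0.0669 and 0.0639), those of Klk12 and Klk13 without wild-type library 3 (0.089 and 0.0611), and that of Klk12 without knockout library 2 (0.0547) or wild-type library 2 (0.0602). The count of 14 became 7, 6, 8 and 7 without knockout library 1, knockout library 3, wild-type library 2 and wild-type library 3. Among inhibitors of such proteases 4 of 21 rose and 1 fell, against 7.58% and 10.1% of all tested genes. Serpinb13 was at 2.29, 2.41 and 0.661 CPM against 9.17, 4.12 and 10.3 CPM (2.04 ± 0.46, adjusted p = 0.00747), and Spint2 at 4.81, 2.19 and 3.31 CPM against 10.3, 11.7 and 14.9 CPM (1.83 ± 0.39, adjusted p = 0.00635). Spink5, the inhibitor lost in Netherton syndrome, was not called (0.02 ± 0.15).

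Junction genes were called in both directions, 7 of 30 higher and 6 lower, against 7.58% and 10.1% of all tested genes. Gjb6, a gap junction connexin, was at 1.74, 4.77 and 4.18 CPM in the GFP libraries, 175.6, 172.3 and 335.6 CPM in the wild-type libraries and 32.2, 51.2 and 44.6 CPM in the knockout libraries (-2.41 ± 0.32, adjusted p = 0.00216). Cgn, cingulin of tight junctions, was at 13.5, 10.7 and 8.93 CPM against 62.6, 26.5 and 33.3 CPM (1.87 ± 0.31, adjusted p = 0.00303). Among desmosomal genes, Dsc2 fell by 1.54 ± 0.34 on the log2 scale (adjusted p = 0.0072). The 7 genes called higher became 4 without knockout library 1 or wild-type library 2. The 6 called lower became 3 without knockout library 1 or GFP library 1 or 3, and 2 without knockout library 3 or wild-type library 3.

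**Figure D4:**
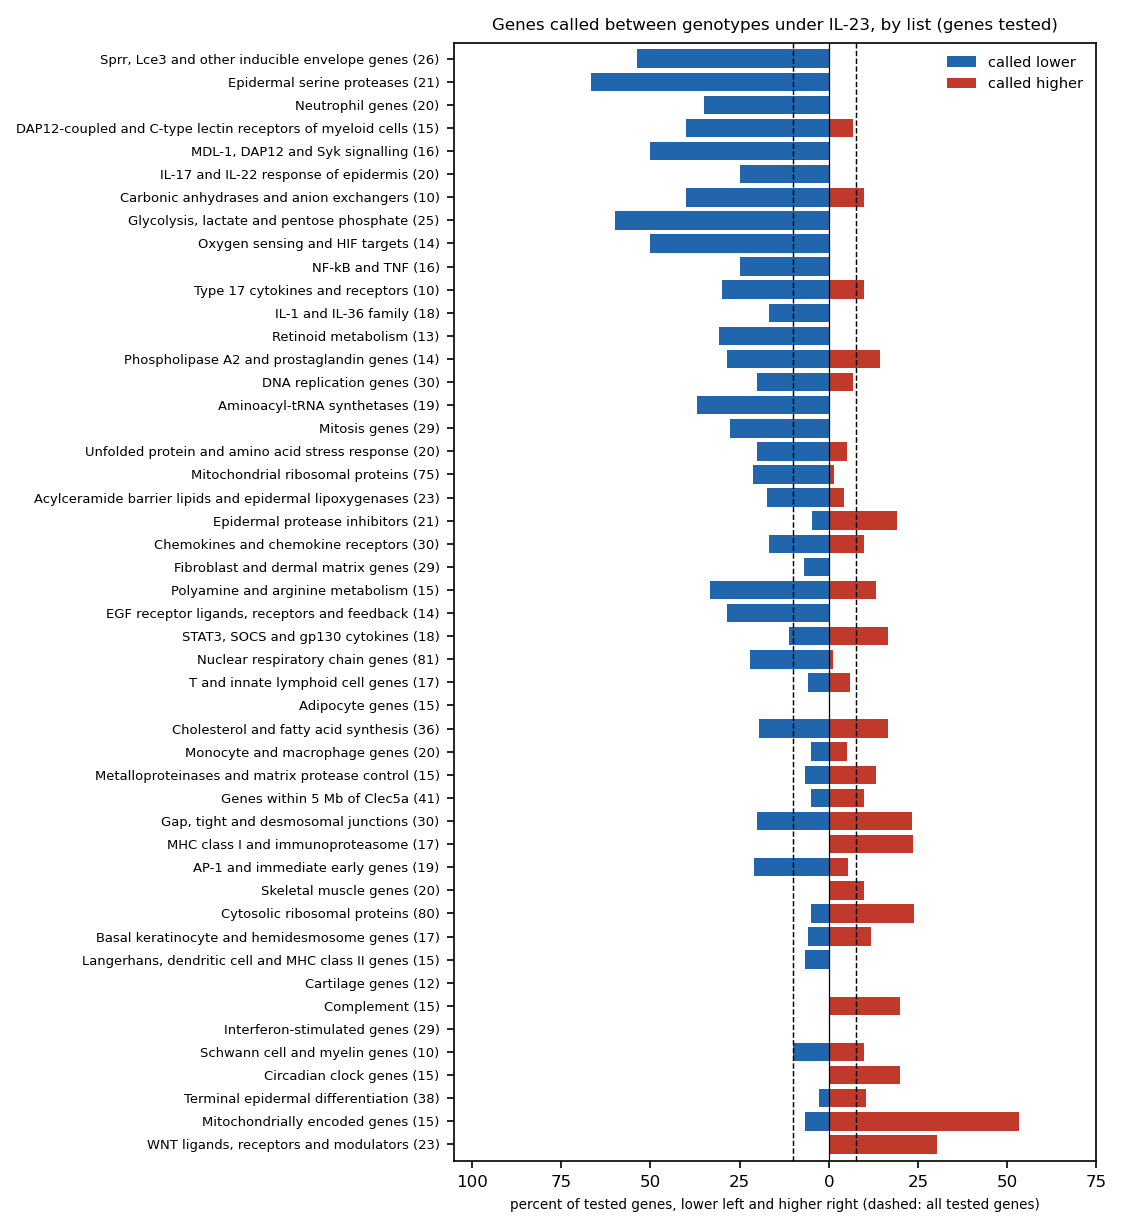
Percent of the tested genes of each list (number tested in brackets) called lower, to the left, or higher, to the right, for the 48 lists with at least 10 tested genes, in order of median log2 fold change. Dashed lines mark 10.1% and 7.58%, the shares over all tested genes. Epidermal serine proteases reach 14 of 21 on the left and mitochondrially encoded genes 8 of 15 on the right.

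Lipid genes of the barrier and of inflammation changed in part. Degs2, which makes phytoceramides, was at 17.6, 30.7 and 46.3 CPM in the wild-type libraries and 8.28, 11.7 and 7.91 CPM in the knockout libraries (-1.74 ± 0.31, adjusted p = 0.00286). Cers3, the ceramide synthase of the skin barrier, fell by 1.01 ± 0.21 on the log2 scale (adjusted p = 0.00646). Alox12e, an epidermal lipoxygenase, rose from 32.1, 33.7 and 15.9 CPM to 146.5, 65.6 and 90.1 CPM, above the GFP libraries at 29.2, 38.0 and 42.1 CPM (1.87 ± 0.34, adjusted p = 0.00645). Beside Pla2g4d, its neighbour in function Pla2g4e fell by 1.44 ± 0.21 (adjusted p = 0.00107). The inducible cyclooxygenase Ptgs2 fell by 1.39 ± 0.34 (adjusted p = 0.0118), a call lost without knockout library 3 (0.0548) or wild-type library 3 (0.0642). The constitutive enzyme Ptgs1 went from 119.2, 103.6 and 86.3 CPM to 180.3, 144.1 and 206.5 CPM, a rise of 0.78 ± 0.17 (adjusted p = 0.00764). In cholesterol and fatty acid synthesis 6 of 36 rose and 7 fell, against 7.58% and 10.1% of all tested genes. Scd3 fell by 1.90 ± 0.30 and Mvd, of the mevalonate pathway, by 1.10 ± 0.16. The 6 became 3, 2 and 3 without knockout library 1 and wild-type libraries 2 and 3, and the 7 became 4 without any 1 of these or knockout library 3.

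Genes of glycolysis and of the oxygen-sensing pathway were lower where called. HIF-1 alpha is the transcription factor stabilised when oxygen is low, and its targets include the enzymes that turn glucose into lactate. Hif1a mRNA was at 781.3, 848.8 and 1099 CPM in the wild-type libraries, 237.1, 460.9 and 268.8 CPM in the knockout libraries and 175.4, 183.4 and 171.7 CPM in the GFP libraries (-1.50 ± 0.22, adjusted p = 0.00157). Every knockout library was below every wild-type library and above every GFP library. Of 14 genes in the oxygen-sensing list 7 fell and none rose, a count of 4 without knockout library 1 or wild-type library 2 or 3. Car12, a carbonic anhydrase, fell by 1.19 ± 0.19 and the oxidoreductase Ero1l by 1.18 ± 0.20. Vegfa, the endothelial growth factor, fell by 1.005 ± 0.30 (adjusted p = 0.0378), a call that held without knockout library 2 and was lost without each of the other 5 (adjusted p 0.0526 to 0.134).

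Of 25 genes of glycolysis, lactate and the pentose phosphate path tested, 15 fell and none rose, with a median of -0.63. The lowered genes included enzymes from the start to the end of glycolysis, from the glucose transporter Slc2a1 and the hexokinases Hk1 and Hk2 through Pfkl, Pfkp, Aldoa, Pgk1, Pgam1 and Eno1 to Pkm and Ldha. Slc2a1 and Eno1 lost their calls without 4 of the IL-23 libraries (adjusted p 0.0606 to 0.12 and 0.0517 to 0.0974), Pfkl without each except knockout library 2 (0.0909 to 0.17), without GFP library 1 (0.0588) and with upper-quartile scaling (0.0578), and Hk1 without knockout library 3 or wild-type library 2 (0.0515 and 0.0507). Ldha (ENSMUSG00000063229, chromosome 7, 46841475 to 46855627, plus strand), lactate dehydrogenase A, was at 3780, 4004 and 5504 CPM in the wild-type libraries, 1158, 1848 and 1215 CPM in the knockout libraries and 736.8, 982.4 and 677.0 CPM in the GFP libraries (-1.65 ± 0.21, 3.15-fold, adjusted p = 0.00107). Slc16a3, the lactate exporter MCT4, was at 44.2, 39.0 and 51.6 CPM against 7.60, 23.6 and 8.63 CPM (-1.75 ± 0.34, adjusted p = 0.00608). Pgam1 fell by 1.42 ± 0.20 and Pfkfb3, which sets the allosteric activator of phosphofructokinase, by 1.23 ± 0.19. The calls of Ldha, Slc16a3, Pgam1 and Pfkfb3 held in every left-out fit. The count of 15 was 9 without knockout library 3 or wild-type library 2.

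Start-site windows of these genes were read for ACGTG, the core letters of the hypoxia response element, on both strands. ACGTG was in 45.8% of the 24 windows of the 15 lowered genes (11 windows, 9 genes), in 20.0% of the 15 windows of the list's other 10 genes and in 16.6% of all windows. These windows differ in base composition, which was not adjusted for, and the palindrome CACGTG counts once on each strand. In the oxygen-sensing list the motif was in 3 of 5 windows of lowered genes and 5 of 7 windows of the others. One window each of Ldha and Pgam1 is shown, because these had the lowest log2 fold changes among the enzymes of the list, with the matches in capitals. A second RefSeq start of Ldha has no match in its window.
Ldha, chr7:46845554-46845803, plus strand, GRCm38.p6: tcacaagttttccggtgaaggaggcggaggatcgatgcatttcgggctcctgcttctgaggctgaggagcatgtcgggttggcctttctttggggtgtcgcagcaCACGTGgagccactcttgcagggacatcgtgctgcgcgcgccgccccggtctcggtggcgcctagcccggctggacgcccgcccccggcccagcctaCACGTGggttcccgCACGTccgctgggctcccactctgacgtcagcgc
Pgam1, chr19:41911621-41911870, plus strand, GRCm38.p6: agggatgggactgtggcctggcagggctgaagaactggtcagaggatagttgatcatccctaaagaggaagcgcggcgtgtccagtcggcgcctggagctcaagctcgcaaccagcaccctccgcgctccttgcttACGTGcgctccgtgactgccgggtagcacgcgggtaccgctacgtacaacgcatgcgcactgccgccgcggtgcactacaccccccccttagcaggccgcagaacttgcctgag
In Ldha the matches began 145, 144, 48, 47 and 34 bases before the start, and in Pgam1 the match began 114 bases before it.

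Genes of amino acid supply and translation followed in part. Atf4, the transcription factor of the amino acid response, was at 483.8, 448.2 and 584.2 CPM in the wild-type libraries and 203.3, 253.9 and 191.2 CPM in the knockout libraries (-1.22 ± 0.17, adjusted p = 0.00107). Psat1, an enzyme of serine synthesis, fell by 0.87 ± 0.17. Of 19 aminoacyl-tRNA synthetases, which charge tRNAs, 7 fell and none rose, a count of 3 without knockout library 1 and 4 without wild-type library 2 or 3. Farsa, a subunit of the phenylalanine enzyme, was at 273.4, 289.7 and 314.4 CPM against 115.6, 132.0 and 124.4 CPM (-1.24 ± 0.15, adjusted p = 0.000671). Polyamine genes split. Smox, spermine oxidase, and Azin1, the antizyme inhibitor, fell by 1.02 ± 0.20 and 1.09 ± 0.20, while Sat1, which acetylates polyamines for export, rose by 0.95 ± 0.21.

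**Figure D5:**
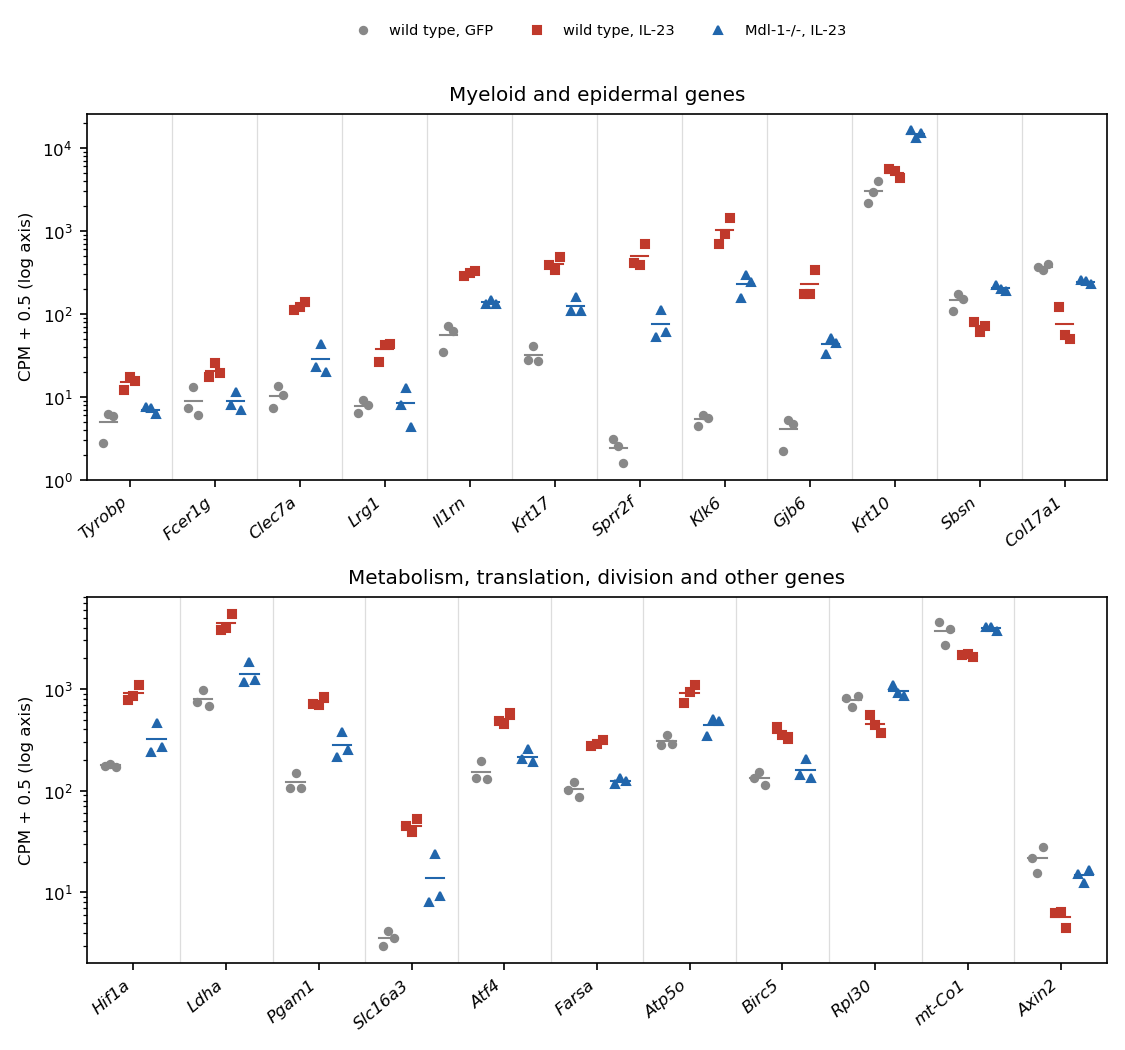
Each point is 1 library (CPM + 0.5, log axis), with the group mean as a line. Upper panel, myeloid and epidermal genes. Lower panel, metabolism, translation, division and other genes. For Hif1a, Ldha and Pgam1 the knockout libraries lie between the GFP and wild-type IL-23 libraries, and for Krt10 they lie above both.

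Cytosolic ribosomal protein genes leaned higher, with 19 of 80 called higher, 4 lower and a median of 0.18. Rpl30 was at 553.7, 442.5 and 366.7 CPM in the wild-type libraries and 1094, 913.0 and 848.0 CPM in the knockout libraries (1.07 ± 0.16, adjusted p = 0.00124), and Rpl32 rose by 1.05 ± 0.17. Rpl24 went the other way, from 113.0, 192.4 and 233.4 CPM to 74.5, 93.55 and 98.5 CPM (-1.01 ± 0.23, adjusted p = 0.0103). The count of 19 was 11 without knockout library 1 and 10 without wild-type library 2. Ribosomal protein genes have many processed pseudogenes, and how the counting treated reads that map to several places is not given in the sources used here.

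Where called, mitochondrially encoded genes were mostly higher and nuclear genes of mitochondrial proteins mostly lower. Of 15 mitochondrially encoded genes tested, the ribosomal RNAs among them, 8 were higher and 1 lower, against 7.58% and 10.1% of all tested genes. The exception was mt-Co3, at 11114, 13398 and 13999 CPM against 8498, 10841 and 9385 CPM (-0.42 ± 0.13, adjusted p = 0.0313), although mt-Co1 of the same enzyme was at 2147, 2191 and 2053 CPM against 4052, 4052 and 3717 CPM (0.89 ± 0.15, adjusted p = 0.00237). The call of mt-Co3 was lost without knockout library 1 or 3 or wild-type library 2 or 3 (adjusted p 0.113 to 0.161) and without GFP library 1 or 3 (0.0548 and 0.0606). The 8 became 4 without wild-type library 2. Of 81 nuclear genes of the respiratory chain 18 were called lower and 1 higher, with a median of -0.14. Atp5o of the ATP synthase was at 730.9, 938.8 and 1082 CPM in the wild-type libraries and 345.5, 502.3 and 479.5 CPM in the knockout libraries (-1.05 ± 0.17, adjusted p = 0.00176). The 18 became 7, 8 and 11 without knockout library 1 and wild-type libraries 2 and 3. The 1 called higher became 8 without GFP library 2, 6 without a count filter, 5 in the fit of the 6 IL-23 libraries alone, 4 with a replicate block, 3 with DESeq2 or without GFP library 1, and 0 without knockout library 1 or 3 or wild-type library 2 or 3. Mitochondrial ribosomal proteins, also nuclear-encoded, gave 16 of 75 lower and 1 higher, led by Mrpl49 (-1.001 ± 0.26), Mrpl16 (-0.98 ± 0.21) and Mrpl37 (-0.96 ± 0.19). Their count was 4, 6, 7 and 5 without knockout library 1, knockout library 3, wild-type library 2 and wild-type library 3.

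Growth factor and cell division genes were mostly lower where called. The EGF receptor ligand Hbegf was at 48.4, 41.6 and 77.7 CPM in the wild-type libraries and 14.3, 27.2 and 19.6 CPM in the knockout libraries (-1.44 ± 0.28, adjusted p = 0.00534). Tgfa, another ligand, fell from 73.1, 77.3 and 156.4 CPM to 33.3, 45.1 and 38.6 CPM (-1.38 ± 0.26, adjusted p = 0.00536). Ereg, another one, was not called (-0.19 ± 0.29, adjusted p = 0.69). Birc5, survivin, was at 423.3, 350.7 and 322.4 CPM against 142.2, 203.6 and 131.5 CPM, a range that overlaps the 133.3, 153.2 and 112.8 CPM of the GFP libraries (-1.20 ± 0.18, adjusted p = 0.00109). The mitotic kinase Plk1 fell by 1.09 ± 0.20 and cyclin A2 (Ccna2) by 1.04 ± 0.19. Of 29 mitosis genes 8 fell and none rose, a count of 3, 4, 5, 5 and 4 without knockout library 1, knockout library 3 and wild-type libraries 1, 2 and 3. Of 30 replication genes 6 fell and 2 rose. Over all tested genes 10.1% fell and 7.58% rose, so the share of replication genes that rose is near that of all genes. The 6 became 2 without knockout library 1 and 3 without knockout library 3. The 2 became 0 without knockout library 1 or 3 or wild-type library 2 or 3, and 1 with DESeq2, RLE size factors, limma voom, no count filter or non-robust dispersions, or without GFP library 1 or 3. Mcm5, a subunit of the replicative helicase, fell by 0.98 ± 0.19, whereas Mcm4 of the same helicase rose by 1.16 ± 0.31 (adjusted p = 0.0257), a call lost without knockout library 1 or 3 or wild-type library 2 or 3 (adjusted p 0.0665 to 0.0997). For Mcm4 the GFP libraries held 51.9, 18.5 and 45.2 CPM, with library 2 the lowest.

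WNT and clock genes were higher where called. Of 23 WNT genes 7 rose and none fell, with a median of 0.47. Axin2, a feedback target of WNT signalling, was at 5.73, 5.91 and 3.97 CPM in the wild-type libraries, 14.8, 11.9 and 16.1 CPM in the knockout libraries and 21.2, 15.1 and 27.7 CPM in the GFP libraries (1.42 ± 0.28, adjusted p = 0.00425). The receptor Fzd6 rose by 0.96 ± 0.22. The count of 7 was 4 with limma voom, and 4, 3 and 3 without knockout library 1 and wild-type libraries 2 and 3. Of 15 clock genes 3 rose: Per2 (1.59 ± 0.39), Bhlhe41 (2.09 ± 0.44) and Hlf (1.97 ± 0.52). Bhlhe41 was at 1.83, 1.53 and 2.31 CPM against 13.6, 4.80 and 5.27 CPM, below 24.4, 16.9 and 20.4 CPM in the GFP libraries. Hlf lost its call without knockout library 1 or 3 or wild-type library 2 (adjusted p 0.0806 to 0.135) and without any 1 of the GFP libraries (0.069 to 0.0721). The hour of collection is not given in the labels.

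Structural tissues of the ear gave few calls. Of 15 adipocyte genes and of 12 cartilage genes edgeR called 0. At an unadjusted p under 0.05 there were 2 and 4, DESeq2 called 0 and 1, and limma voom 0 and 0. With 1 library left out at most 1 adipocyte and 2 cartilage genes were called. Of 20 skeletal muscle genes 2 rose, the myosin heavy chains Myh2, at 2.06, 3.07 and 3.64 CPM against 10.5, 11.7 and 22.04 CPM (2.35 ± 0.34, adjusted p = 0.00107), and Myh8 (2.55 ± 0.60), which limma voom did not call (adjusted p = 0.0504). That is near the 7.58% of all tested genes, and the 2 became 4 with DESeq2 or without knockout library 1. The summed muscle genes ran from 1164 to 1332 CPM in the wild-type and from 777.6 to 2624 CPM in the knockout libraries. Of 29 fibroblast and matrix genes 2 fell, fibronectin (Fn1, -0.90 ± 0.21) and fibulin-1 (Fbln1, -0.98 ± 0.30), a share below the 10.1% of all tested genes. The collagen gene Col1a1 was not called (-1.39 ± 0.79, adjusted p = 0.282). Without knockout library 1 there were 5 such falls and without knockout library 3 there were 0, and Fn1 had an adjusted p of 0.0525 without knockout library 3. Fbln1 lost its call without knockout library 1 or 3 or wild-type library 2 or 3 (adjusted p 0.0902 to 0.148).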

How the data were processed

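Total RNA from whole mouse ears was made into 3' tag libraries and sequenced on an Illumina instrument, per the labels' protocols, and RNA with an integrity number above 5 was used. Per the submitters' processing notes, STAR 2.7.0a, featureCounts and edgeR were used and the build is named as GRCh38.p6, a human name, although the gene identifiers are those of mouse. For strand and multimapping the settings were not given in the sources used here. Raw counts for each library were deposited by the authors (54838 genes, 25446 of them without a count in any library), and the values of a library did not differ between the deposited tables. The fold change, p-value and other test columns the authors deposited were not used. Rows without a gene symbol (29) stayed in the totals and hold at most 0.00218% of a library. Gene types and positions are those of GENCODE M21 (GRCm38), matched by gene identifier.

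Counts of all 9 libraries (3 groups of 3) were fitted with edgeR 4.0.16 in R 4.3.3 (TMM scaling, filterByExpr with a minimum count of 10 and a minimum total of 15, robust quasi-likelihood F-test, group means, 6 residual degrees of freedom). The contrast was Mdl-1-/- minus wild type under IL-23, with Benjamini-Hochberg adjustment over all 13807 tested genes and a threshold of 0.05. The script was tested on simulated data. CPM values are counts per 1000000 of the TMM-scaled total. Alternatives were the 6 IL-23 libraries alone, DESeq2 1.42.0, limma voom 3.58.1, other scalings and filters, non-robust dispersions, a replicate block and each library left out in turn. Named genes are the 12 largest falls and rises called with at least 5 CPM in the higher group and no overlap, up to 4 called genes and the gene with the most counts in each list, genes fixed by name (such as Clec5a, Tyrobp, Il17a, Il1b and Krt16), and called genes within 5 Mb of Clec5a. Further members of the lists, such as Inpp5d, Mgl2, Hp, Cd163, Cxcr4, Tap2, mt-Co3, Rpl24, Col1a1 and most glycolysis enzymes, were named after their values were seen. The lists and members were chosen with earlier results of these data known, so the counts are descriptions. Some results are not reported here.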

Additional observations from a re-analysis of the deposited data

How the results depend on the processing

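Every named gene that was called kept its direction in all alternatives run, though many lost the call when 1 IL-23 library was left out. The number of genes called was 2436 in the fit of the 6 IL-23 libraries alone (12493 tested), 2436 with DESeq2, 2451 with RLE size factors, 2181 with limma voom, 2413 with a minimum count of 30, 2829 without a count filter and 2424 with non-robust dispersions. Upper-quartile scaling gave 2479 calls, of which 1318 were higher and 1161 lower, so the share of higher calls was 53.2% against 42.9% with TMM. Leaving out 1 of the 9 libraries in turn gave 1128 to 2802 calls, 447 to 1329 of them higher and 666 to 1473 lower. Pairing by replicate number was not evident for every number. For numbers 1, 2 and 3 the deviations from the group means correlated at r = 0.23, -0.085 and 0.07 across 13807 genes. Not every library correlated best with its own number, and whether the numbers mark pairs or batches was not settled. With the replicate number as a block, 2800 genes were called, 1247 higher and 1553 lower. The difference in the share of mitochondrial counts, 3.33 percentage points, was 0.713 points (exact permutation p = 0.1, two-sided) when only protein-coding mitochondrial genes were counted, and 2.96 to 3.74 points with 1 IL-23 library left out, where the smallest possible p is 0.2. Depth limits the low genes: Clec5a had 5 to 21 counts in the IL-23 libraries.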

Other observations

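The knockout differs from the wild type at Clec5a on chromosome 6, and the genes beside it were listed separately. Of 41 tested genes that start within 5 Mb of Clec5a (GRCm38), 4 were called higher and 2 lower, 14.6% against 17.7% of all tested genes and 16.8% of those on chromosome 6. The raised genes were Ptn, a heparin-binding growth factor, with a log2 fold change of 1.21 ± 0.22 (SE, adjusted p = 0.00292, edgeR), Trim24 (0.82 ± 0.19, adjusted p = 0.00945), the ribosomal protein pseudogene Rpl30-ps1 (1.11 ± 0.19, adjusted p = 0.00237) and Gstk1 (0.98 ± 0.33, adjusted p = 0.0488). The lowered genes were Fmc1 (-0.73 ± 0.16, adjusted p = 0.00607) and Trbc2, a constant segment of the T cell receptor beta chain (-0.67 ± 0.22, adjusted p = 0.0447). Reads of Rpl30-ps1 may be shared with its parent gene, so its value is uncertain. Among the autosomes and chromosome X, the percentage called was highest on chromosome X, at 21.1%. Other nuclear sequences with few tested genes were left out of this ranking. On the mitochondrial genome 9 of 16 tested genes were called.

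Of the genes known to differ between C57BL/6 substrains, 3 were tested. Ide, which encodes the insulin-degrading enzyme, was lower in the knockout libraries (log2 fold change -0.81 ± 0.18, adjusted p = 0.00721, edgeR), and the other two were not called. The labels give the strain as C57BL/6 for every library and name no substrain.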
